A study of Mus musculus with 2 samples.

Results

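Stefin-low mature neutrophils were a set of cell barcodes from the alveolar bone of mice, the bone that holds the teeth, chosen by the share of each barcode's RNA that came from 7 short sets of genes. A member had at least 5% of its unique molecular identifiers (UMIs, a count of RNA molecules rather than of reads) from S100a8 and S100a9. It had less than 3% from the specific granule genes Camp, Ltf and Ngp, less than 1% from the azurophil granule protease genes Elane, Mpo, Prtn3 and Ctsg, and less than 0.3% from the stefin genes Stfa2, Stfa2l1, BC100530 and Gm5483. It also had less than 0.1% from the interferon-induced genes Isg15, Ifit1, Ifit3 and Rsad2, less than 0.04% from the cell cycle genes Mki67, Top2a, Birc5 and Ube2c, and less than 0.04% from Ace, Treml4, Eno3 and Adgre4, which mark nonclassical monocytes. The rule found 354 members among 4887 kept barcodes, 192 of 2835 in the control library and 162 of 2052 in the OTM library.

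OTM stands for orthodontic tooth movement. Male C57/B6 J mice of 8 weeks carried a nickel-titanium coil spring that pulled the left first molar towards the incisors for 7 days, and control mice were of the same age, with no appliance described for them. Cells released from the alveolar bone with collagenase were sorted for F4/80 and CD11b, 2 surface proteins of myeloid cells, and sequenced as 1 droplet library per group. The methods divide 20 mice between the groups but do not say how many animals went into each library. The animal of a cell cannot be told. With 1 library per group and with cells that are not replicates, no test between the groups was possible. All intervals below are 95% intervals that cover counting error only.

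Neutrophils are short-lived white blood cells that mature in the bone marrow. They make their granules in turn, azurophil granules first, then specific granules, then gelatinase granules, so the granule RNA of a cell follows its stage, and mature cells leave the marrow under the control of the chemokine receptors Cxcr2 and Cxcr4. Stefins are small inhibitors of cysteine proteases such as the cathepsins, and mice carry a cluster of stefin A genes on chromosome 16 that is active in late neutrophils.

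The 4 stefin genes that set the members apart are close copies, so a read from 1 of them could be counted for another. Their last coding exons, all of 123 bases, are shown to make this plain, 5′ to 3′ on the coding strand and with capitals at each base that differs from Stfa2l1. They came from the reference annotation on GRCm38, at chr16:36404030-36404152 (minus strand) for Stfa2, chr16:36161747-36161869 (plus strand) for Stfa2l1, chr16:36359463-36359585 (minus strand) for BC100530 and chr16:36187914-36188036 (plus strand) for Gm5483.
Stfa2l1: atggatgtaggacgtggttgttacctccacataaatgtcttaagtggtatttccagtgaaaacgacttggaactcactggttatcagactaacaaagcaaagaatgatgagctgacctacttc
Stfa2: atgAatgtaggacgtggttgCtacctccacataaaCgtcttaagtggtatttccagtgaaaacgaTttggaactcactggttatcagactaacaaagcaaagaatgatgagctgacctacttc
BC100530: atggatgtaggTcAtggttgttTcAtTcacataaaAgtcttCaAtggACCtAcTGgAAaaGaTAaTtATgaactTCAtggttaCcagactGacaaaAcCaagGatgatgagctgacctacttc
Gm5483: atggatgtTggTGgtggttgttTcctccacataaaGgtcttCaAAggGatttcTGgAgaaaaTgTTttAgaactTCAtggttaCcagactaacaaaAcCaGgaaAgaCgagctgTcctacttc
Stfa2 shared 96.7% of these bases with Stfa2l1, BC100530 shared 75.6% and Gm5483 78.9%. A read counted for another of the 4 genes leaves their sum unchanged. Whether reads were dropped, or counted for stefin genes outside the 4, was not tested. The level of a single gene, Stfa2 against Stfa2l1 above all, is uncertain.

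Members made up 6.77% of the kept control barcodes (5.87% to 7.76%) and 7.89% of the kept OTM barcodes (6.76% to 9.15%), and these intervals overlapped. The stefin condition drew its line through a continuous range. The last member below it had 0.297% stefin UMIs in control and 0.299% in OTM, and the first barcodes above it had 0.304% and 0.317%. No stefin UMI at all was found in 108 control and 49 OTM members. Of the barcodes that met every other condition, 59.3% of 324 in control (53.7% to 64.7%) and 39.9% of 406 in OTM (35.1% to 44.8%) were below the stefin limit. Among monocyte-poor barcodes, the split described next, these shares were 55.7% of 253 (49.4% to 62.0%) and 33.2% of 319 (28.1% to 38.7%). The stefin-high remainder numbered 132 in control and 244 in OTM. Because median depth was 2383 UMIs in control members and 3904.5 in OTM members, 1 UMI of a cell cycle gene would have passed its limit in 105 control and 13 OTM members, and the conditions set at the lowest shares were not equally strict in the libraries.

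Barcodes that met the rule differed widely in their monocyte RNA. They were cut by the share of 10 monocyte markers (Ccr2, Csf1r, Ly86, F13a1, Ms4a6c, Fn1, Klf4, Cx3cr1, Lgmn and Ctss). This gave a large set under 0.1%, a few between 0.1% and 0.2%, and a second set at 0.2% and above. These limits were placed after the data had been seen. Few OTM members lay between them, but in control the shares ran on without a clear gap. The first set, called monocyte-poor here, held 141 control members (73.4%) and 106 OTM members (65.4%). The second, called monocyte-carrying, held 40 (20.8%) and 52 (32.1%), and 11 and 4 lay between.

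**Figure D1:**
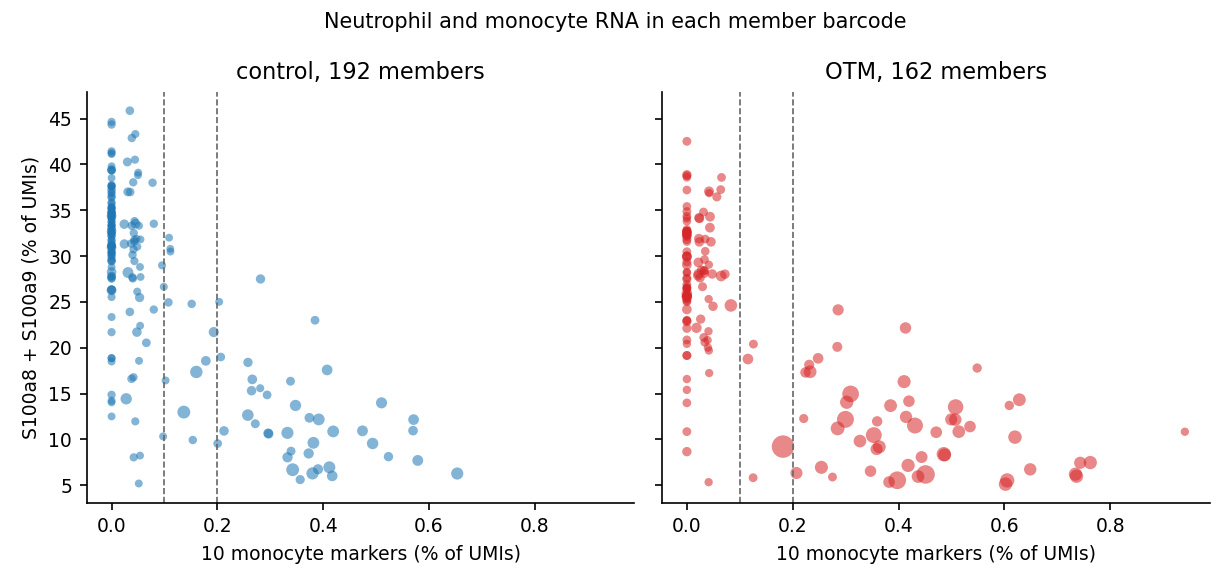
Each point is 1 member barcode, with the share of its UMIs from 10 monocyte markers on the x axis and from S100a8 and S100a9 on the y axis (both in %), control on the left and OTM on the right, a larger point having more UMIs and dashed lines at 0.1% and 0.2%. Monocyte-poor members had a median of 31.8% (control) and 28.1% (OTM) S100a8 and S100a9, against 10.9% and 10.8% in the monocyte-carrying members.

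The monocyte-carrying members held far more RNA. Their median was 4836.5 UMIs and 1408.5 genes in control and 9813 UMIs and 1953.5 genes in OTM, against 2194 UMIs and 551 genes, and 3182 UMIs and 684 genes, in the monocyte-poor members. Monocyte-rich barcodes of the same libraries, which had under 5% S100a8 and S100a9, had medians of 4100 and 7218 UMIs. In the carrying members the 10 monocyte markers stood at a median of 60.5% (control) and 68.3% (OTM) of their level in monocyte-rich barcodes, and 10 neutrophil genes at a median of 39.9% and 35.1% of their level in monocyte-poor members. The first of these medians follows in part from how the set was chosen. The libraries shared 6 barcode sequences, 2 of them members in 1 library, and none was a member in both.

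Ccr2, the receptor by which inflammatory monocytes leave the marrow, and Csf1r, the receptor for the growth factor of macrophages, were the check for monocyte RNA over all members. At least 1 UMI of either gene was found in 52 of 192 control and 58 of 162 OTM members. In monocyte-carrying members this was 32 of 40 and 45 of 52, with both genes in 10 and 26. In monocyte-poor members it was 13 of 141 and 11 of 106, and none of these had both. These low counts follow from the split, since Ccr2 and Csf1r are among its 10 markers and 1 UMI of each comes close to or past its limit at these depths. After each barcode was thinned to 1700 UMIs, a depth every kept barcode had, a UMI of either gene was seen in 17.7% of control and 18.5% of OTM members, 6.38% and 3.77% of monocyte-poor members, 40% and 50% of monocyte-carrying members, and 66.5% and 62.9% of monocyte-rich barcodes. The unthinned shares were 27.1% and 35.8% of members. Among stefin-high neutrophils, not split by monocyte markers either, the thinned share was 9.85% in control and 11.1% in OTM against the 17.7% and 18.5% of all members. Free RNA can give such UMIs in droplet data, and its part was not tested.

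The doublet caller Scrublet marked 0 control and 3 OTM kept barcodes, under 0.5% of either library, and therefore gave no usable view of doublets. Its median score was higher in monocyte-carrying members, 0.178 in control and 0.120 in OTM, than in monocyte-poor members, 0.030 and 0.031. Whether the carrying members were 2 cells in 1 droplet was not tested further. Results below are therefore given for the monocyte-poor members, and the OTM over control ratios of named genes also over all members.

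Neutrophil markers were high in the monocyte-poor members, as their name says. S100a8, which with S100a9 forms the calprotectin of the neutrophil cytosol, was used in the rule and stood at 196544 CPM (UMIs of the gene per 1000000 UMIs) in control and 176381 CPM in OTM. Retnlg, a resistin-like secreted protein of neutrophils, was at 60843 CPM (60025 to 61669.9) and 61761 CPM (60963 to 62566), against 923 and 728 CPM in monocyte-rich barcodes. Mmp8, the collagenase of neutrophil granules, was at 2387 CPM (2227 to 2555) and 3241 CPM (3059.8 to 3429), against 147 and 569 CPM. Csf3r, the receptor of granulocyte colony-stimulating factor, was at 360.4 CPM (300 to 429) and 294 CPM (242 to 355), against 79.4 and 65.4 CPM. Retnlg, Mmp8 and Csf3r were each above their level in the monocyte-rich barcodes of the same library. S100a8 was left out of this comparison, because monocyte-rich barcodes were chosen to have under 5% S100a8 and S100a9. Per barcode, Retnlg ranged from 2403 to 118178 CPM in control (median 60589) and from 5752 to 120060 CPM in OTM (median 57747), and no monocyte-poor member lacked it.

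The gene of the macrophage sort marker was rarely seen in them. Adgre1, which encodes F4/80, had 2 UMIs in the 141 control and 4 in the 106 OTM monocyte-poor members, and in thinned barcodes it was seen in 1.42% and 1.89% of them against 17.2% and 17.7% of monocyte-rich barcodes. Itgam, which encodes CD11b and was read from the identifier with more UMIs where its symbol stands for several, was seen in 34.0% and 21.7% of monocyte-poor members. The labels call the sorted cells macrophages, and RNA does not tell how much F4/80 protein a cell carried. Among markers of other cells in the monocyte-poor members, all 7 stromal markers were at 0 UMIs in both libraries. B cell markers summed to 34.6 CPM in control and 0 in OTM, and dendritic cell markers to 25.9 and 10.8 CPM. T and NK cell markers summed to 487 and 321 CPM, nearly all of it Cd3d with 167 and 115 UMIs. Eosinophil, basophil and mast cell markers summed to 86.5 and 2.70 CPM, with Mcpt8, a basophil protease, at 20 UMIs in control and 0 in OTM. Osteoclast markers summed to 1136 and 1077.5 CPM, nearly all of it Mmp9, which neutrophils also express, and 5 of the 7 were at 0 UMIs in each library. Monocyte markers, kept low by the split, summed to 1084 and 799 CPM against 8627 and 8865 CPM in monocyte-rich barcodes, and resident macrophage markers to 107 and 167 CPM against 2187 and 5690 CPM. Erythroid markers summed to 479 CPM in control and 89.1 CPM in OTM.

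Under the rule, stefin-high mature neutrophils differ from the members in the stefin condition alone. Over monocyte-poor barcodes of both populations together, 524 genes outside the rule had at least 100 UMIs in each library. Of these, 1 gene (0.191%) was at least 1.5-fold higher in the members in both libraries and 2 (0.382%) were at least 1.5-fold lower. The higher gene was Ptgs2, the inducible cyclooxygenase of prostaglandin synthesis, at 363 CPM in members and 197 CPM in stefin-high cells in control (ratio 1.84, 1.33 to 2.59). In OTM it was at 324 and 164 CPM (ratio 1.97, 1.52 to 2.55). The lower genes were Stfa3 and BC117090, further members of the stefin cluster that share sequence with the genes of the rule, at ratios of 0.148 and 0.114 and of 0.0635 and 0.0324 in control and OTM.

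Genes of neutrophil function stood at close levels in stefin-low and stefin-high cells. Retnlg had ratios of 0.923 (0.905 to 0.942) in control and 0.986 in OTM, and Cxcl2, a chemokine that draws neutrophils, 0.958 and 0.990. Cebpb, a transcription factor of emergency granulopoiesis, had 1.00 and 0.968, and Cxcr2, the receptor that lets neutrophils leave the marrow, 0.953 (0.611 to 1.49) and 0.917 (0.679 to 1.23). Spp1, which encodes the matrix protein osteopontin, was lower in the members in both libraries but past 1.5-fold in OTM alone, at ratios of 0.797 (0.654 to 0.970) and 0.449 (0.337 to 0.589). When all members were set against all stefin-high barcodes instead, 111 of 894 genes (12.4%) were higher in both libraries and 2 (0.224%) lower. The 111 included monocyte and macrophage genes such as Fn1, which encodes fibronectin, and Apoe, a lipid carrier of macrophages. In that comparison Ccr2 was at 3.19 and 1.98 times its stefin-high level in control and OTM.

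Specific granule stage neutrophils, with at least 3% Camp, Ltf and Ngp UMIs, are an earlier step of the same maturation. Of 1139 genes measured over monocyte-poor barcodes, 215 (18.9%) were at least 1.5-fold higher in the members in both libraries and 208 (18.3%) lower. Among the largest were Ifitm1, an interferon-induced membrane protein, at 7.23 and 6.52 times the granule stage level in control and OTM, Ccl6, a chemokine of myeloid cells, at 5.09 and 9.67, and Prok2, a secreted peptide of mature neutrophils, at 6.29 and 5.17. Nlrp3, the sensor of the inflammasome that activates IL-1β, was at 3.91 and 4.07, and Asprv1, an aspartic protease, at 3.93 and 9.06. Receptor genes of mature cells were higher as well, Csf3r at 3.07 and 3.497 and Cxcr2 at 1.89 and 3.42. So were Il1b, which encodes the cytokine IL-1β, at 3.41 and 4.52, and Cxcl2 at 3.25 and 3.74.

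The genes lower than at the granule stage included some of developing cells. Chil3, a chitinase-like protein packed in specific granules, was at 0.0695 and 0.120 of the granule stage level, and Fcnb, a lectin of the granules, at 0.0882 and 0.0335. Stmn1, a microtubule regulator of dividing cells, was at 0.0424 and 0.0618, and Orm1, an acute phase glycoprotein, at 0.0517 and 0.0255. S100a9, a gene of the rule, was at 0.975 in both libraries. Over all members and all granule stage barcodes, 363 of 1700 genes (21.4%) were higher and 68 (4%) lower. With totals without the genes of the rule, more genes were lower than higher in this comparison. The monocyte-poor counts were not repeated with those totals.

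Interferon-response neutrophils, set apart by Isg15, Ifit1, Ifit3 and Rsad2, were the third neighbour. Of 334 genes measured over monocyte-poor barcodes, 2 (0.599%) were higher in the members in both libraries and 8 (2.4%) lower, and in OTM that population held only 4 monocyte-poor barcodes. The lower genes included other interferon-induced genes that the rule does not name, Ifi27l2a at 0.221 and 0.270 and Ifitm3 at 0.418 and 0.516. Over all members, 11 of 775 genes (1.42%) were higher and 19 (2.45%) lower.

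**Figure D2:**
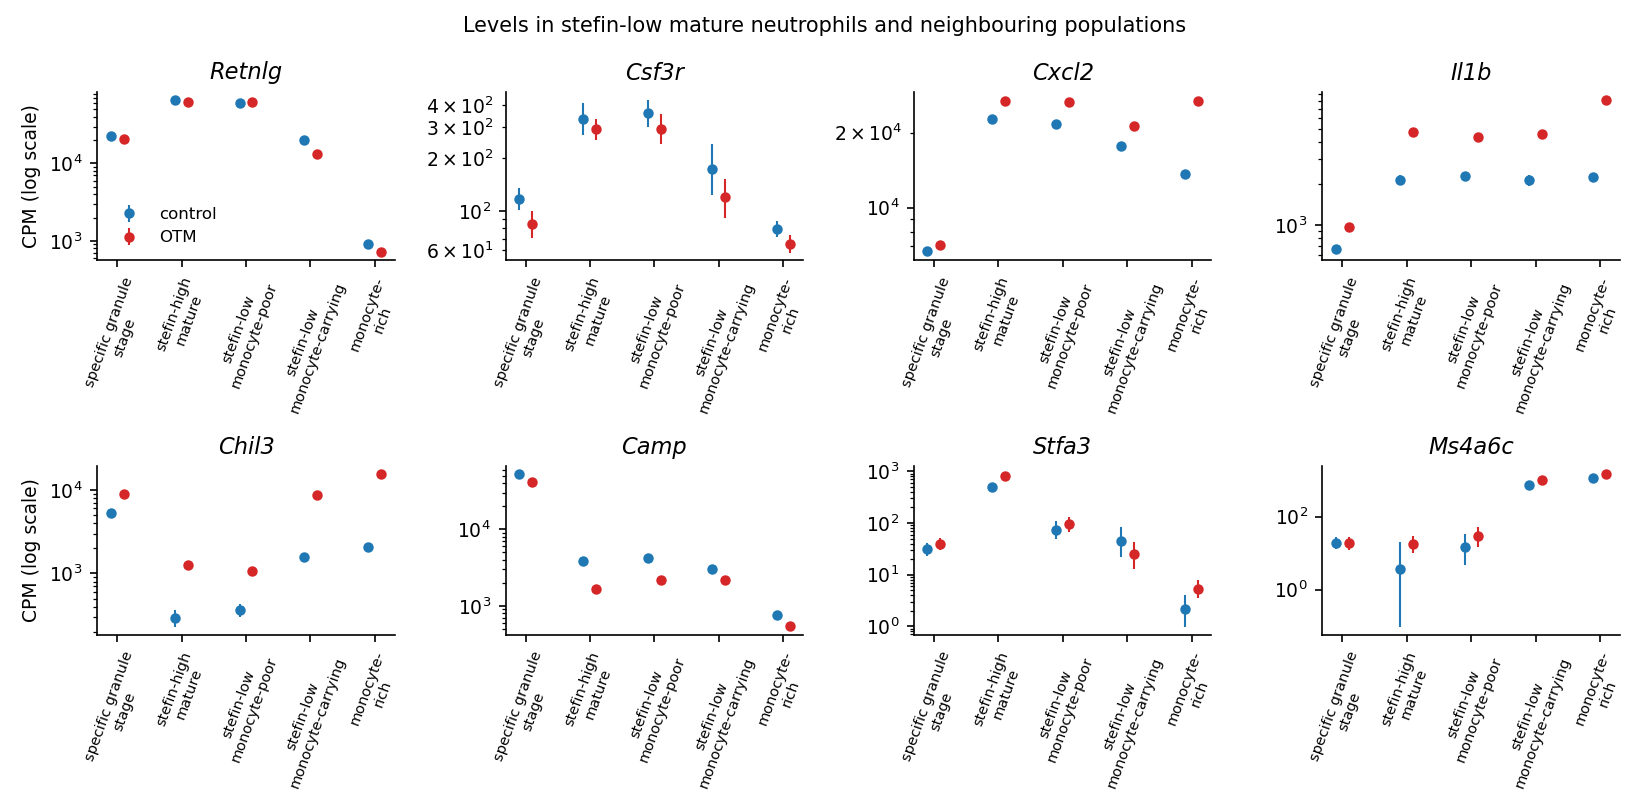
Each panel plots the CPM of 1 gene on a log scale in 5 populations, for control (blue) and OTM (red), as UMIs summed over the barcodes of the population with exact Poisson 95% intervals. The granule stage and stefin-high populations are their monocyte-poor barcodes, Camp is a gene of the rule and Ms4a6c is among the markers that split the members. Retnlg and Csf3r were near each other in stefin-high and monocyte-poor stefin-low cells and lower in the other 3 populations, while Stfa3 was highest in stefin-high cells.

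Between the groups, the monocyte-poor members had higher levels in OTM of Il1a and Il1b, of 3 of 4 acute phase genes, of the receptor genes Fpr1, C5ar1 and Cd14 and of 4 of 8 NF-κB feedback genes, and lower levels of Cxcr4, Thbs1, Spp1 and Ccl4. Of 615 genes outside the rule with at least 100 UMIs, 81 (13.2%) were at least 1.5-fold higher in OTM and 54 (8.78%) at least 1.5-fold lower, with a median log2 ratio of 0.04. These shares are the background for the count of each gene list in monocyte-poor members below. Over all members 1379 genes were measured, 298 (21.6%) were higher and 108 (7.83%) lower, with a median log2 ratio of 0.18. Only 71 of the 298 had 100 UMIs in monocyte-poor members, of which 41 were past 1.5-fold there too and 12 were below 1. The monocyte-carrying kind was 32.1% of OTM and 20.8% of control members, and its part in the all-member ratios was not tested beyond the values given side by side. The split between higher and lower genes moved with the scaling. TMM factors gave 130 higher and 30 lower genes in monocyte-poor members and 196 and 187 in all members, and totals without the genes of the rule gave 71 and 70 in monocyte-poor members, while TMM moved their median log2 ratio to 0.18. Each scaling shifts all log2 ratios by the same amount, and these shifts were too small to reverse a gene past 1.5-fold. That the 45 named genes past 1.5-fold in monocyte-poor members kept their direction was therefore fixed in advance. Under TMM 44 of them stayed past 1.5-fold.

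Il1a (chr2:129299610-129309972 on GRCm38) encodes IL-1α, an alarm cytokine. It had 6 UMIs in control monocyte-poor members, 17.3 CPM (6.35 to 37.6), and 96 in OTM, 259 CPM (210.0 to 317), a ratio of 14.99 (6.64 to 41.9). Over all members the ratio was 14.9. In thinned barcodes it was seen in 2.13% of control and 20.8% of OTM monocyte-poor members. The gene was also higher in the OTM monocyte-rich barcodes, 402 against 54.97 CPM.

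Il1b was at 2269 CPM (2113 to 2433) in control and 4334 CPM (4125 to 4552) in OTM, a ratio of 1.91 (1.75 to 2.08), and at the same ratio over all members. It was seen in 68.8% and 90.6% of thinned monocyte-poor members. The natural brakes of interleukin 1 differed less. Il1rn, which encodes the receptor antagonist, had a ratio of 1.40 (1.22 to 1.61), and Il1r2, the decoy receptor, 1.36 (1.247 to 1.48). Of 10 measured cytokine and chemokine genes in monocyte-poor members, 3 were higher in OTM and 1 lower, with a median log2 ratio of 0.27, the third being Hdc, the enzyme that makes histamine, at 1.98 (1.66 to 2.38). In all members together the ratios were 1.17 for Il1rn, 1.00 for Il1r2 and 1.55 for Hdc.

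The chemokine genes with the most RNA were close to 1 or lower in OTM. Ccl4, a chemokine for monocytes and T cells, was at 1883 CPM (1741 to 2033) in control and 791 CPM (703 to 887) in OTM monocyte-poor members, a ratio of 0.420 (0.365 to 0.483). Its level in monocyte-rich barcodes went the other way, 1446 in control and 2548 CPM in OTM, and over all members the ratio was 0.824. Ccl3, its close relative, had a ratio of 0.911 (0.812 to 1.02), and Cxcl2, at 21760.1 and 26506 CPM, 1.22 (1.18 to 1.26). Cxcl1, Cxcl3 and Ccl9 were at least 1.5-fold higher in OTM over all members, at 2.66, 2.04 and 1.68, and Cxcl1 had 14 and 54 UMIs in monocyte-poor members (ratio 3.61, 1.98 to 7.04). Cxcl3 and Ccl9 were below 1 there on few UMIs, Cxcl3 at 0.652 (0.322 to 1.29). With every member counted the ratios were 0.860 for Ccl3 and 1.12 for Cxcl2.

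Acute phase genes are those that inflammation turns up in blood proteins. Of 4 measured in monocyte-poor members, 3 were at least 1.5-fold higher in OTM, with a median log2 ratio of 1.23 against 0.04 over all 615 genes, and the fourth, Lcn2, was at 1.49 (1.40 to 1.59). Saa3, a serum amyloid A of inflamed tissue, was at 25.9 CPM (11.9 to 49.3) in control and 275 CPM (224.6 to 334) in OTM, a ratio of 10.6 (5.38 to 23.9). It was far higher in barcodes with monocyte RNA. It stood at 478 CPM in control and 11309 CPM in OTM monocyte-rich barcodes, at 7113 CPM in OTM monocyte-carrying members and at 236 CPM in OTM granule stage neutrophils, and the part of free RNA in the monocyte-poor level was not tested. Lrg1, a glycoprotein stored in neutrophil granules, was at 640.0 CPM (559 to 730.0) and 1963 CPM (1823 to 2111), a ratio of 3.07 (2.64 to 3.58), and was above its monocyte-rich levels of 52.6 and 755 CPM. It was seen in 51.8% and 84.0% of thinned monocyte-poor members. Hp, which encodes haptoglobin, had a ratio of 1.80 (1.64 to 1.98). The all-member ratios were 1.33 for Lcn2, 14.9 for Saa3, 2.53 for Lrg1 and 1.49 for Hp.

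Large ratios were also found for Gpr84, a receptor for medium-chain fatty acids, and for Asprv1, which was named after its values were seen. Gpr84 was at 28.8 CPM (13.8 to 53.0) in control and 278 CPM (227 to 337) in OTM, a ratio of 9.65 (5.04 to 20.7), and in OTM it was above the monocyte-rich level of 86.1 CPM. Asprv1 (chr6:86628164-86629710 on GRCm38) was at 133 CPM (97.1 to 177) and 716 CPM (632 to 807), a ratio of 5.396 (3.93 to 7.55). Monocyte-rich barcodes held hardly any of it, 5.92 and 15.3 CPM, and in monocyte-carrying members its ratio was 0.933. Serpinb2, an inhibitor of plasminogen activators, rested on 4 and 55 UMIs in monocyte-poor members. Taken over all members, ratios were 7.86 for Gpr84 and 3.04 for Asprv1.

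Some of the largest ratios over all members were smaller in the monocyte-poor cells or rested there on few UMIs. Chil3 was at 6.64 (6.05 to 7.30) over all members and 2.92 (2.38 to 3.60) in monocyte-poor members, and its level in monocyte-rich barcodes was 2079 CPM in control and 15356 CPM in OTM. Ifitm1 was at 8.15 and 2.60 (2.03 to 3.37). Mif, a cytokine that holds macrophages in place, was at 4.86 (2.71 to 9.45) over all members but had 4 and 2 UMIs in monocyte-poor members. Dmkn, Sdc4 and Hebp1, with ratios of 24.3, 7.98 and 6.07 over all members, had 12, 2 and 7 OTM UMIs and at most 2 control UMIs there.

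Receptor genes differed one by one. Of 8 measured chemoattractant receptors in monocyte-poor members, 3 were at least 1.5-fold higher and 1 lower, with a median log2 ratio of 0.46. Fpr1, which senses formylated peptides of bacteria and mitochondria, was at 444 CPM (377 to 519.9) and 1048 CPM (946 to 1157), a ratio of 2.36 (1.95 to 2.86). Its relative Fpr2 was at 1.07 (0.869 to 1.31). C5ar1, the receptor for complement C5a, was at 1.71 (1.48 to 1.98) and Ccrl2, a chemerin-binding receptor, at 1.98 (1.80 to 2.17). Cxcr2 had a ratio of 1.33 whose interval, 0.904 to 1.96, held 1. Of 13 pattern and Fc receptors, with a median log2 ratio of 0.20, 2 were higher, a share near the 13.2% of all measured genes. These were Cd14, the co-receptor for bacterial lipopolysaccharide, at 2.27 (2.16 to 2.40), and Fcgr3, a receptor for antibodies, at 1.501 (1.12 to 2.02), while Tlr2, a receptor for bacterial lipoproteins, was at 1.47 (1.22 to 1.78). For all members the values were 2.08 for Fpr1, 0.941 for Fpr2, 1.56 for C5ar1, 1.46 for Ccrl2, 0.953 for Cxcr2, 1.66 for Cd14, 1.53 for Fcgr3 and 1.30 for Tlr2.

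Cxcr4 (chr1:128588199-128592293), which holds neutrophils in the marrow, was the receptor that was lower. It was at 285 CPM (232 to 347) in control and 81.0 CPM (54.7 to 116) in OTM monocyte-poor members, a ratio of 0.284 (0.182 to 0.431), and at 0.334 over all members. It was seen in 33.3% and 13.2% of thinned monocyte-poor members. Monocyte-rich barcodes had a like difference, 339.8 and 88.9 CPM. Of 10 adhesion genes 2 were higher in OTM and 1 lower, against 13.2% and 8.78% of all 615 measured genes. The lower one was Itgam at 0.529 (0.363 to 0.762), and the part of the sort, which used its protein, was not tested. The all-member ratio was 0.686 for Itgam.

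Thbs1 and Spp1 encode the matrix proteins thrombospondin 1 and osteopontin. Thbs1 (chr2:118111876-118127133), named after its values were seen, was at 594 CPM (516 to 681) in control and 143 CPM (107 to 187) in OTM monocyte-poor members, a ratio of 0.241 (0.175 to 0.327). In monocyte-carrying members the ratio was 1.19, and in monocyte-rich barcodes the level was higher in OTM, 874 against 349 CPM. Spp1 was at 608 CPM (529 to 696) and 173 CPM (133 to 221), a ratio of 0.284 (0.211 to 0.377), and it was seen in 22.7% and 11.3% of thinned monocyte-poor members. Vegfa, the growth factor of blood vessels, had 47 and 18 UMIs there and a ratio of 0.359 (0.196 to 0.629). With every member counted the ratios were 0.610 for Thbs1, 0.311 for Spp1 and 0.198 for Vegfa.

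Most granule genes were within 1.5-fold, but specific granule genes were higher in OTM more often than all measured genes. Of 10 measured specific granule genes 4 were at least 1.5-fold higher in OTM and 0 lower (median log2 ratio 0.44), the fourth being Ifitm6 at 2.17 (1.93 to 2.45). Gene lists can share genes, so this count and that of the acute phase genes are not to be read as separate results. Of 11 gelatinase granule and secretory vesicle genes 2 were higher and 2 lower (median 0.25). Over all 615 measured genes, 13.2% were higher and 8.78% lower (median 0.04). Mmp9, the gelatinase, was at 1127 and 1072 CPM in monocyte-poor members, a ratio of 0.951 (0.825 to 1.10), and Mmp8 had 1.36 (1.24 to 1.49). Over all members Mmp9 was at 0.649 (0.575 to 0.733), past the fold. Adam8, a membrane protease, was lower in both, 0.575 (0.452 to 0.728) and 0.474 (0.389 to 0.576). Retnlg had a ratio of 1.02 (0.996 to 1.03) in monocyte-poor members and 0.722 over all members. The all-member ratios were 1.52 for Ifitm6 and 1.04 for Mmp8.

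Feedback inhibitors and targets of NF-κB, the transcription factor behind many inflammatory genes, were higher in 4 of 8 cases and lower in 0, with a median log2 ratio of 0.56. Nfkbia, which encodes the inhibitor IκBα, was at 2433 CPM (2272 to 2603) and 4261 CPM (4054 to 4477), a ratio of 1.75 (1.61 to 1.91). Tnfaip3, which encodes the deubiquitinase A20, was at 1.56 (1.30 to 1.89), Birc3, a ubiquitin ligase, at 1.60 (1.23 to 2.10), and Sod2, the superoxide dismutase of mitochondria, at 1.93 (1.54 to 2.42). Nfkbiz, another member, was at 1.12 (0.976 to 1.29). Over all members 2 of 9 were higher, a share near the 21.6% of all 1379 genes measured there, Nfkbia then being just below the fold at 1.47. Taken over all members, ratios were 1.26 for Tnfaip3, 1.33 for Birc3, 1.87 for Sod2 and 0.928 for Nfkbiz.

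Socs3, the feedback inhibitor of STAT3 signalling from G-CSF and IL-6, was at 77.8 CPM (51.3 to 113) and 273 CPM (222 to 331), a ratio of 3.504 (2.27 to 5.58), and was named after its values were seen. Fosl1, an AP-1 subunit, was likewise at 3.29 (2.16 to 5.16), and none of the measured immediate early genes of the list was at least 1.5-fold higher. Of 16 immediate early and heat shock genes 1 was higher and 1 lower (median log2 ratio 0.13). Egr1, an early response factor, was at 0.645 (0.519 to 0.8003), Fos, an AP-1 subunit, at 0.763 (0.659 to 0.882), and Hspa8, a constitutive chaperone, at 1.77 (1.37 to 2.30). For all members the values were 1.94 for Socs3, 1.77 for Fosl1, 0.426 for Egr1, 0.640 for Fos and 2.17 for Hspa8.

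Interferon-induced genes outside the rule were higher in 3 of 7 cases and lower in 1, with a median log2 ratio of 0.42. Ifitm2, a membrane protein that restricts viruses, was at 2.18 (1.90 to 2.51), and Slfn2, a schlafen of immune cells, at 2.41 (1.95 to 2.98), while its relative Slfn4 was at 0.568 (0.373 to 0.853) and Ifi27l2a at 0.750 (0.660 to 0.852). Barcodes with high Isg15, Ifit1, Ifit3 and Rsad2 had been kept out by the rule. Of 9 genes of glycolysis and the hypoxia response 3 were higher and 0 lower (median log2 ratio 0.50), namely Ldha, lactate dehydrogenase, at 1.72 (1.37 to 2.17), Gpi1, the isomerase of glucose 6-phosphate, at 1.66 (1.34 to 2.07), and Pkm, pyruvate kinase, at 1.57 (1.33 to 1.86). H2-D1, a class I antigen-presenting molecule, was at 1.61 (1.501 to 1.73). Of 15 actin and motility genes 0 were higher and 1 lower. Of 7 genes of the NADPH oxidase, which makes superoxide, 1 was higher and 0 lower, near the shares of all 615 measured genes (13.2% and 8.78%). Hemoglobin RNA, which neutrophils do not make, was lower in OTM, Hbb-bs at 0.281 (0.170 to 0.448), and was lower by a like amount in monocyte-rich barcodes, 173 and 54.8 CPM. The part of free RNA in other values was not tested. In all members together the ratios were 1.74 for Ifitm2, 2.27 for Slfn2, 0.405 for Slfn4, 0.686 for Ifi27l2a, 1.72 for Ldha, 1.46 for Gpi1, 1.57 for Pkm, 1.26 for H2-D1 and 0.256 for Hbb-bs.

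**Figure D3:**
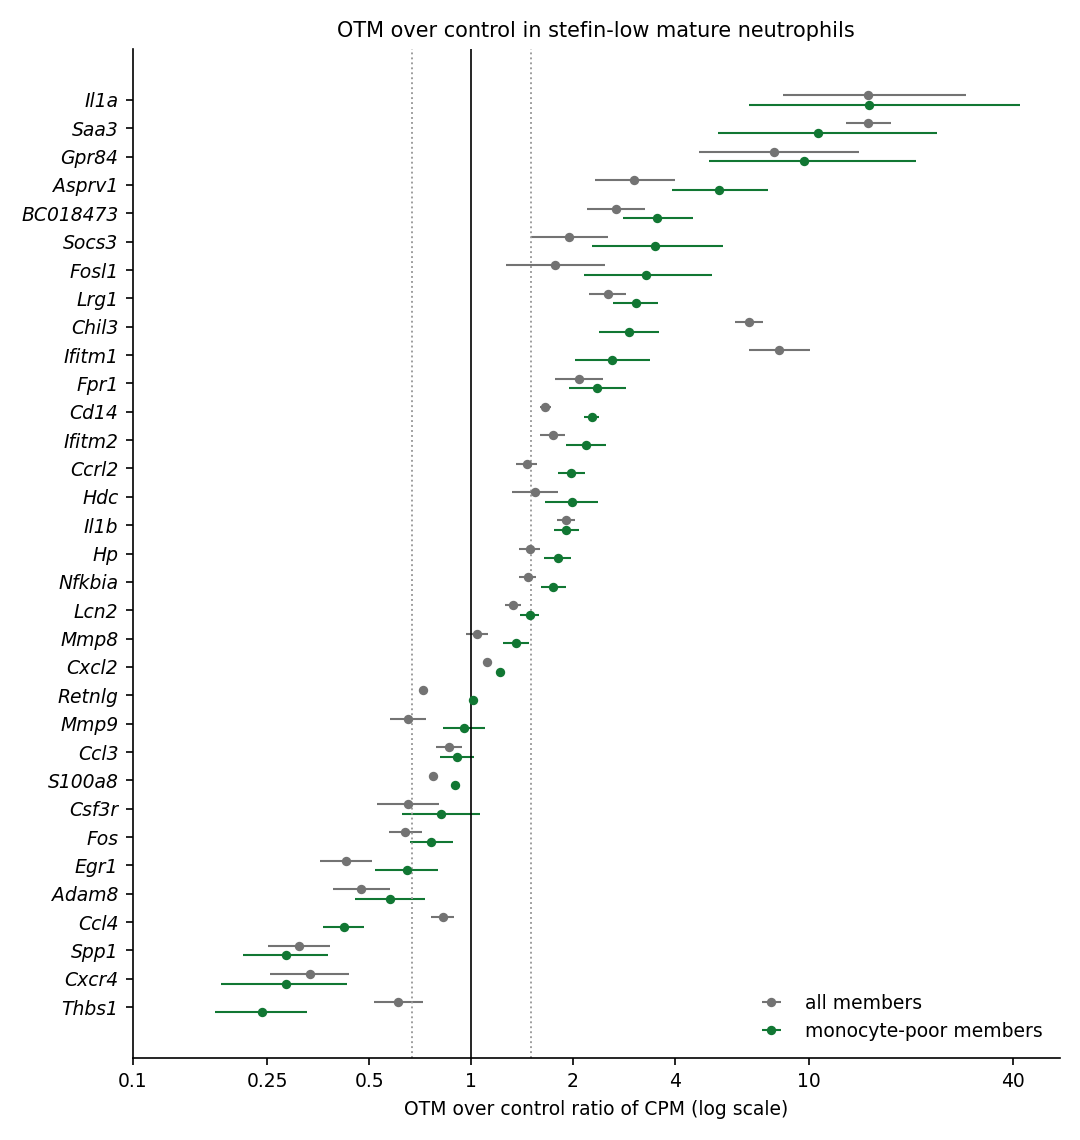
The plot of OTM over control ratios gives 33 genes on a log scale, with all members in grey and monocyte-poor members in green, bars for exact conditional 95% intervals and dotted lines at 1.5 and 0.67. Il1a, Saa3 and Gpr84 lie farthest to the right in monocyte-poor members, and Thbs1 and Ccl4 lie farther to the left in monocyte-poor members than over all members.

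The promoters of a few of these genes are shown because their ratios in the members stand far apart and a reader can look for the letters of known motifs in each. The sequences are the 250 bases before the start of the gene, from RefSeq on GRCm38.p6, 5′ to 3′ on the strand of the gene, with matches in capitals. Both strands were searched for TTNNGNAA (C/EBP), TTCNNNGAA (STAT), GAGGAA (ETS) and the κB motif of NF-κB. The positions are chr7:46715677-46715926 (minus) for Saa3, chr11:117969367-117969616 (minus) for Socs3 and chr16:48872358-48872607 (plus) for Retnlg.
Saa3: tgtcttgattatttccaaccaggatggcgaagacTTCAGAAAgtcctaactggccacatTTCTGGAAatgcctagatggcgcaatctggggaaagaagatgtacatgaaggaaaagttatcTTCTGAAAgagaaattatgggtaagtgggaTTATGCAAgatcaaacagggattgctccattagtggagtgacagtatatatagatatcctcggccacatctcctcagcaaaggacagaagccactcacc
Socs3: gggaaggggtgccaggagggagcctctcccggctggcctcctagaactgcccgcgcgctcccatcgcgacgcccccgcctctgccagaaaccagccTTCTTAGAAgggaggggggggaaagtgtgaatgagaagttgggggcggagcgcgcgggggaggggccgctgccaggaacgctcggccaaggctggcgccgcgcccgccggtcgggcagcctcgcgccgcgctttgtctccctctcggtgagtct
Retnlg: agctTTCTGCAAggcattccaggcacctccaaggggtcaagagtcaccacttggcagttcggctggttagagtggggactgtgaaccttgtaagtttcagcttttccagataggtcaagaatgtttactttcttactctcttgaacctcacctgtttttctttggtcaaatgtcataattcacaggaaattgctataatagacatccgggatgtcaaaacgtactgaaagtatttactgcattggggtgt
The C/EBP letters were found 4 times before Saa3, once before Retnlg and Cxcr4 and in neither of the windows of Lrg1 and Asprv1, and the STAT letters once before Socs3. The κB and ETS letters were not in any of these 6 windows. Of 32851 promoters of the same length, 36.8% held the C/EBP letters, 7.02% the STAT letters, 1.41% the κB letters and 23.3% the ETS letters. A match describes the letters and does not show a factor at the site.

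Cytokine and antigen presentation genes were among those with the highest ratio of variance to mean over the members. The ratio of variance to mean over thinned barcodes is 1 for counting noise alone, and its median over 694 genes was 1.22 in control and 1.29 in OTM. For genes that vary between barcodes it rises with their level, so genes with much RNA rank high, and no correction for level was made. Over all members Cd74, the chaperone of class II antigen presentation, led with 33.9 and 29.5, and Apoe, H2-Aa and H2-Ab1, genes of macrophages and antigen presentation, were among the first 15. None of these was among the first 15 over monocyte-poor members, where the median was 1.16 and 1.15 over 590 genes. There the list was led by Actb, which encodes β-actin, with 32.7 and 24.0 at means of 25.2 and 22.0 UMIs. It also held Cxcl2 with 17.1 and 20.9, Ccl4 with 26.1 and 14.1, Wfdc17, a small secreted protein of myeloid cells, with 17.4 and 18.7, and Il1b with 5.66 and 8.39. Per barcode, Il1b ran from 0 to 12924 CPM in control monocyte-poor members (median 1197, 37 at 0) and from 0 to 26472 CPM in OTM (median 3330, 4 at 0). The 2 libraries overlapped widely.

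Within the monocyte-poor members, the remaining share of Camp, Ltf and Ngp, which the rule limits from above, still varied. Members of each library were cut into 3 bins of this share, with 47 barcodes a bin in control and 36, 35 and 35 in OTM. Lcn2, another specific granule gene, went from 1923 CPM in the low to 4672 in the middle and 5959 CPM in the high bin in control, and from 4878 to 6271 and 7731 CPM in OTM. Ifitm6 went the same way, from 613 to 1559 CPM and from 1449.7 to 3009 CPM between the low and high bins. Several cytokine, receptor and NF-κB genes were instead highest where the granule share was low.

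Il1b was highest in the low bin, 3589 CPM (3242 to 3962) against 1844 CPM in the high bin in control and 6847 CPM (6366 to 7355) against 2932 CPM in OTM. Ccrl2 was at 2966 and 1155 CPM in the low and high bins of control and 6929 and 2529 CPM in those of OTM, and Nfkbia at 3671 and 1733 CPM in the low and high bins of control and 5872 and 3130.4 CPM in those of OTM. Csf3r was at 577 and 229.5 CPM in the low and high bins of control and 519.7 and 190.4 CPM in those of OTM. In every bin Il1b, Ccrl2, Nfkbia, Lcn2 and Ifitm6 were higher in OTM than in control. Cxcr4 was higher in the low bin in control, 412 against 214 CPM, and was near 72.9 to 91.4 CPM in all OTM bins. Median depth differed between the bins as well, with 2081 UMIs in the low and 2387 in the high bin of control and 2802 and 3532 in those of OTM, and its part was not tested.

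**Figure D4:**
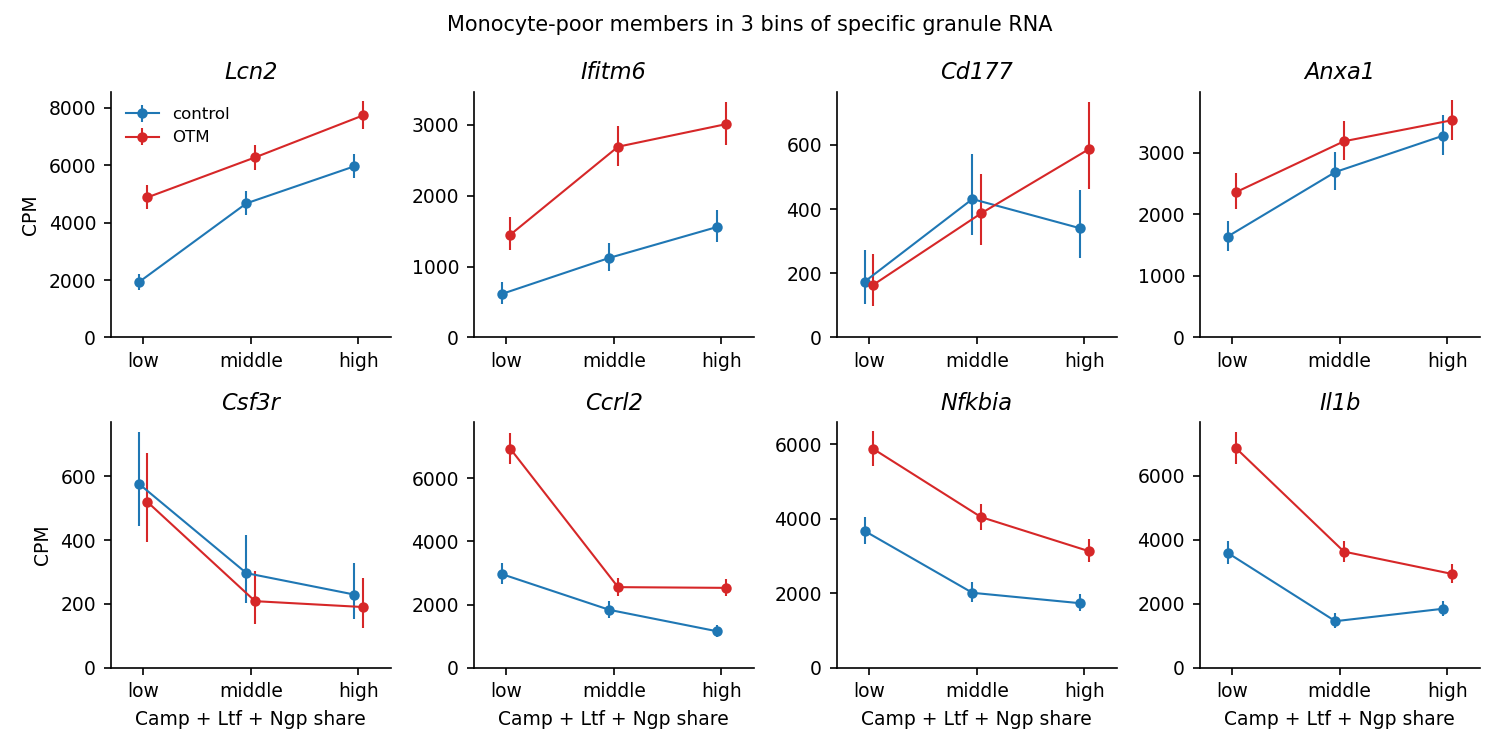
Each panel gives the CPM of 1 gene in the low, middle and high bin of monocyte-poor members by their Camp, Ltf and Ngp share, for control (blue) and OTM (red), with exact Poisson 95% intervals and axes that start at 0. Lcn2 and Ifitm6 are highest in the high bin in both libraries, while Ccrl2 and Nfkbia are highest in the low bin.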

How the data were processed

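Alveolar bone cells of mice sorted for F4/80 and CD11b were sequenced as 1 library of control mice and 1 of mice with 7 days of force. Each UMI count per gene and barcode is a value that the authors deposited; per the submitters' processing notes Cell Ranger 3.0.0 and Seurat 3.0.0 were used with mm10. The deposited tables held 2863 control and 2058 OTM barcodes with 14620877 and 16500733 UMIs. Barcodes with at least 200 genes and at most 5% mitochondrial UMIs were kept, 2835 and 2052, with 1777 to 33041 and 2354 to 40340 UMIs each. The members and gene lists were chosen with earlier results of these data known. The split into monocyte-poor and monocyte-carrying members was added after the data had been seen.

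UMIs were summed over the barcodes of a population in a library and divided by the total, as CPM, with exact Poisson intervals. Intervals of the OTM over control ratio came from the binomial distribution conditional on the UMIs of both libraries, and shares of barcodes have exact Clopper-Pearson intervals, all at 95%. A gene outside the rule with at least 100 UMIs over both libraries was counted as higher or lower at a ratio of at least 1.5 or at most 0.67. In comparisons with neighbouring populations, 100 UMIs over the compared populations were needed in each library, and the fold in both libraries. Those comparisons use the same members, and each library's total is shared by all its genes, so a high gene lowers the CPM of the rest. Shares of barcodes with a UMI were read after thinning each barcode to 1700 UMIs (seed 7), which left out none. No p-value was computed, since each group had 1 library. The scripts were tested on simulated data.

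Genes named in the text are those of the rule and the marker and sort genes, the 10 largest and 10 smallest OTM over control ratios, up to 4 genes of highest level and the genes past 1.5-fold in each list, the 8 highest and 8 lowest against each neighbouring population, and the 15 most variable genes. Others, among them Cxcr2, Il1rn, Fpr2 and Tlr2, fall outside these rules and were named with their values known, which is not said in each place. Those picked from the monocyte-poor members were likewise named after their values were seen. Alternatives changed the limits of the rule, the scaling, the depth, the minimum of UMIs and the fold. Python 3.11.15, numpy 2.4.6, scipy 1.17.1, pandas 2.3.3, scanpy 1.11.5, matplotlib 3.10.9, R 4.3.3 and edgeR 4.0.16 (for TMM factors) were used. Promoters were taken from RefSeq on GRCm38.p6.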

Additional observations from a re-analysis of the deposited data

Results flagged for a closer look

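Of 1071 genes measured in both populations, 5 were past 1.5-fold in opposite directions in stefin-low and stefin-high mature neutrophils, and the difference was not tested. The OTM over control ratios in all members and in stefin-high cells were 1.68 and 0.632 for Akr1a1, an aldehyde reductase, 2.04 and 0.566 for Cxcl3, a chemokine, and 0.645 and 1.66 for Glul, glutamine synthetase. They were 1.59 and 0.573 for Ndufa4, a mitochondrial respiratory chain protein, and 2.53 and 0.644 for Ptma, prothymosin alpha. Each of these genes had 29 to 44 UMIs over both libraries in monocyte-poor members, and of 614 genes compared over monocyte-poor barcodes of both populations, 0 went in opposite directions past 1.5-fold.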

How the results depend on the processing

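The share of members moved with the limits of the rule. In control and OTM it was 5.64% and 6.38% at a stefin limit of 0.15%, 8.47% and 10.4% at 0.6%, and 4.41% and 5.65% at a specific granule limit of 1.5%. It was 6.63% in OTM at a minimum of 10% S100a8 and S100a9, 4.73% and 4.87% at 20%, 4.94% and 5.07% without members with a Ccr2 or Csf1r UMI, and 4.97% and 5.17% for monocyte-poor members. Without thinning, a Ccr2 or Csf1r UMI was seen in 27.1% and 35.8% of members. Genes higher and lower in OTM, 298 and 108 over all members, numbered 166 and 61 in members with at least 200 genes per 1000 UMIs, 85 and 41 without members with a Ccr2 or Csf1r UMI, 81 and 54 in monocyte-poor members, and 83 and 35 at a minimum of 20% S100a8 and S100a9. They numbered 196 and 187 with TMM scaling, 111 and 30 in thinned barcodes, 130 and 30 with TMM in monocyte-poor members, and 71 and 70 there with totals without the genes of the rule. They were 549 and 217 at a minimum of 50 UMIs, 170 and 43 at 200 UMIs, and 107 and 34 at a fold of 2. Higher genes numbered 191 at a stefin limit of 0.15% and 177 at a minimum of 10% S100a8 and S100a9. With TMM, 51.2% of the genes past 1.5-fold over all members were higher, against 73.4%.

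Over all members, some named genes changed direction. Without members with a Ccr2 or Csf1r UMI the ratios were 0.948 for Mif, 0.975 for Pgam1, 0.908 for Ctsc, 0.890 for Ms4a6c and 0.820 for S100a10. In monocyte-poor members they were 0.468 for Mif, 0.652 for Cxcl3, 0.669 for Ccl9, 0.937 for Pgam1, 0.758 for Ctsc, 0.749 for Ccr2, 0.468 for S100a10 and 0.876 for Id2. At a minimum of 20% S100a8 and S100a9 they were 0.474 for Cxcl3, 0.972 for Pgam1, 0.831 for Ctsc, 0.684 for Apoe and 0.914 for S100a10. The cause was not tested. Against stefin-high cells, 1 gene was higher and 2 lower in monocyte-poor barcodes, 4 were lower with totals without the genes of the rule, and 5 were lower when members under 0.15% were set against barcodes of at least 0.6%. Against granule stage cells the counts were 123 and 163 with totals without the genes of the rule and 215 and 208 in monocyte-poor barcodes, and against interferon-response cells 2 and 8 in monocyte-poor barcodes. The limits at 0.1% and 20% and the scalings within monocyte-poor members were chosen after seeing the data. With a minimum of 1500 UMIs, which no member missed, and without Scrublet doublets, no count or named gene moved past these limits. No paired analysis was possible because each group had 1 library.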
